A study of Lotus japonicus with 6 samples.

Results

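The data describe 6 genes of symbiosis signalling in root nodules of the legume Lotus japonicus, the organs in which the plant lodges rhizobia that fix nitrogen. The genes are NFR1, NFR5, EPR3, SYMRK, CCaMK and CYCLOPS. They were set by a list of MG-20 gene identifiers and not by a rule on their measured values, although earlier results of these data were known. They are 6 of the 37427 loci in the table of counts and FPKM (reads scaled by transcript length and library total). RNA-seq was made from nodules taken at 3 weeks post-inoculation, with 3 libraries from the NAC-OE line, which overexpresses a transcription factor of the NAC family, and 3 from the control line GUS-OE, which overexpresses the reporter GUS. Both lines were in the MG-20 background and both were inoculated. The series title names the factor as NAC094 and concerns early nodule senescence; the sources used here do not name the promoter that drove each transgene or the number of independent lines. The table pairs no identifier with a gene name, so the NAC transcript itself and markers of nodule tissue were not analysed here.

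Rhizobia announce themselves to the plant by lipochitooligosaccharide Nod factors, which are perceived at the root surface by the LysM-domain receptors NFR1 and NFR5 acting as a complex. NFR1 carries an active kinase, whereas the kinase domain of NFR5 is inactive. EPR3 is a related LysM receptor that reads the exopolysaccharide coat of the bacteria. Downstream lies the common symbiosis pathway, which legumes share with the older symbiosis with mycorrhizal fungi: the leucine-rich-repeat receptor kinase SYMRK, the nuclear calcium- and calmodulin-dependent kinase CCaMK, which decodes calcium spiking, and CYCLOPS, a transcription factor that CCaMK phosphorylates and that switches on genes of nodule formation.

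All 6 loci had a row, and each had 1 transcript, so the value of a locus is that of its transcript. By their identifiers, 5 lie on chromosome 2 and CCaMK, Lj3g3v1739280, lies on chromosome 3. Lengths derived from the ratio of count to FPKM were about 2180 bases for NFR1 (Lj2g3v2904690), 2300 for NFR5 (Lj2g3v1828350), 2320 for EPR3 (Lj2g3v1415410), 3350 for SYMRK (Lj2g3v1467920), 1780 for CCaMK and 1880 for CYCLOPS (Lj2g3v1549600). EPR3, SYMRK, CCaMK and CYCLOPS had whole counts in all 6 libraries. NFR1 and NFR5 had fractional counts in 2 libraries each, so some of their reads had been divided with other features. The total counts of the libraries were between 36091242 and 39513316 in NAC-OE and between 35531188 and 38739912 in GUS-OE.

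Of the 6 genes, NFR1 and SYMRK were higher in NAC-OE nodules, CCaMK and CYCLOPS were lower, and NFR5 and EPR3 were not called (edgeR quasi-likelihood test on counts summed per locus, n = 3 per group, Benjamini-Hochberg adjusted p under 0.05). The call for CCaMK held under every alternative setting tried. That for NFR1 held under those that tested it, but NFR1 passed the filter on low counts only through NAC-OE, the group where it is high, and stricter filters gave it no value. The calls for SYMRK and CYCLOPS were lost under some settings, given beside each gene. Among all 37386 loci tested, 31.2% were called higher and 30.4% lower, so 2 of 6 in each direction is close to the background. With library size alone as the scale, the loci called higher numbered 14229 and those called lower 8709, in place of 11650 and 11368. The 6 genes, with calls in both directions, had a median log2 fold change of 0.39, against 0.01 for all loci. Their median was 0.67 with library size alone, 0.24 without GUS-OE replicate 2, and -0.12 over the 4 genes left by a filter of 1 CPM. In CPM, counts scaled to a common library size, the groups did not overlap for NFR1, SYMRK and CCaMK, 3 of 6 genes, against 68.4% of all tested loci. Nodules are mixed tissue measured in bulk, so fewer cells of a type and less RNA per cell cannot be told apart.

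**Figure D1:**
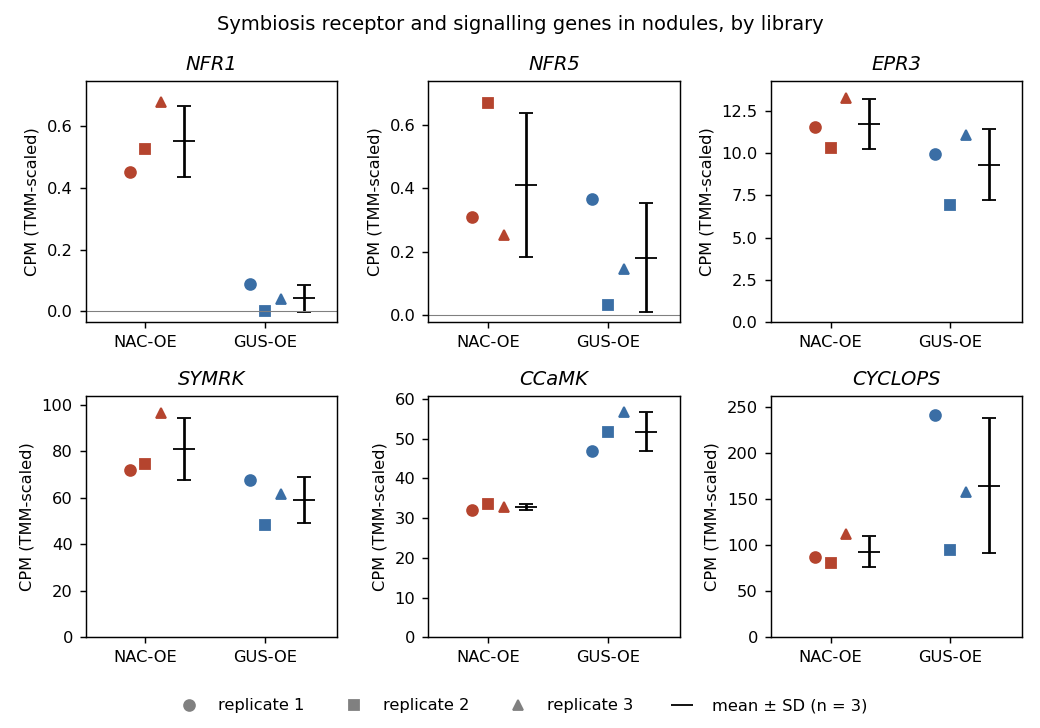
Level of each gene in CPM, scaled by TMM factors, in the 3 NAC-OE libraries (left, red) and the 3 GUS-OE libraries (right, blue); marker shapes give the replicate number and black bars the mean ± SD. The groups do not overlap for NFR1, SYMRK and CCaMK, and the GUS-OE values of CYCLOPS are widely spread.

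The Nod factor receptors were scarce in nodules of both lines. NFR1 had 19, 19.67 and 31 counts in NAC-OE replicates 1, 2 and 3, and 3, 0 and 1.33 counts in GUS-OE replicates 1, 2 and 3. All NAC-OE libraries were above all GUS-OE libraries, and GUS-OE replicate 2 held no read at all. The level was 0.552 ± 0.115 CPM in NAC-OE and 0.0422 ± 0.0442 CPM in GUS-OE (SD, n = 3 each). This gave a fitted log2 fold change of 3.71 with a standard error of 0.75 (95% interval 2.05 to 5.38; edgeR adjusted p = 0.00158). Summed and rounded, the reads were 70 in NAC-OE and 4 in GUS-OE, a ratio of 14.2 after scaling by TMM-scaled library sizes. Its exact 95% binomial interval, 5.31 to 53.6 on the same scale, covers counting error only. That interval takes the rounded counts as whole, separate reads, although NFR1 counts include shares of divided reads, described below. No GUS-OE library reached the level that the filter asks for, and without GUS-OE replicate 1 the log2 fold change was 4.96. In every library its FPKM was low among all loci, at percentiles 5.33 to 8.05 in NAC-OE and 0.66 to 2.1 in GUS-OE.

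The reads counted for NFR1 matched those of a neighbour closely. The next locus in identifier order has 2 further transcripts, besides its first, whose counts were equal to each other in every library, at 13, 14.67 and 28 in NAC-OE and 2, 0 and 1.33 in GUS-OE. Added to the NFR1 counts, they gave whole numbers within 0.02 in all 6 libraries: 45, 49 and 87 in NAC-OE, and 7, 0 and 4 in GUS-OE. NFR1 exceeded these transcripts by 6, 5 and 3 counts in NAC-OE and by 1, 0 and 0 counts in GUS-OE. For the rest, its count equalled that of each of those models, and the table does not tell from which of them the divided reads came. Pooled as 1 feature, a choice made after seeing the data, the 3 transcripts had 1.43 ± 0.428 CPM in NAC-OE and 0.107 ± 0.103 CPM in GUS-OE (SD, n = 3 each). Their log2 fold change was 3.69 with a standard error of 0.68 (edgeR adjusted p = 0.000928). The added counts equal most of the NFR1 counts, so the pooled value was bound to lie near that of NFR1 and is no separate support. The next locus as a whole was not called (log2 fold change -0.44, edgeR adjusted p = 0.149).

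NFR5, the partner of NFR1 in the receptor complex, had 13, 25 and 11.5 counts in NAC-OE and 12.5, 1 and 5 counts in GUS-OE. The groups overlapped, with NAC-OE replicates 1 and 3 below GUS-OE replicate 1 in CPM. Its level was 0.41 ± 0.227 CPM in NAC-OE and 0.181 ± 0.172 CPM in GUS-OE (SD, n = 3 each). NFR5 reached the level that the filter asks for in 3 NAC-OE libraries but in only 1 GUS-OE library, so it too passed through NAC-OE. The log2 fold change of 1.20 was not called (95% interval -0.42 to 2.83; edgeR adjusted p = 0.177), and the interval spans both no change and a rise of several fold. Single libraries moved it: it was 2.18 without GUS-OE replicate 1 (edgeR adjusted p = 0.0503), 0.72 without GUS-OE replicate 2 and 0.73 without NAC-OE replicate 2. Tested among single transcripts without GUS-OE replicate 1, NFR5 was called (log2 fold change 2.13; edgeR adjusted p = 0.0486). In FPKM it stood at percentiles 2.88 to 7.7 of all loci in NAC-OE and 1.37 to 5.74 in GUS-OE.

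The ratio of NFR1 to NFR5 within a library does not depend on scaling between libraries. In FPKM it was 1.53, 0.833 and 2.77 in NAC-OE, against 0.267, 0 and 0.333 in GUS-OE. The ratios did not overlap, and the difference of their means was 1.51 (exact two-sided permutation test, p = 0.1, the smallest value that 3 against 3 libraries allow). Without NAC-OE replicate 3 the difference was 0.983, and without NAC-OE replicate 2 it was 1.95. These ratios rest on few reads, and the NFR1 part of them on the divided reads described above. The ratio of 0 in GUS-OE replicate 2 sets 0 counts of NFR1 against 1 count of NFR5. Both genes passed the filter on low counts through NAC-OE, and the share of non-overlapping ratios among genes at such low levels was not computed. The separation is therefore given as a description only.

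EPR3, the exopolysaccharide receptor, was expressed near the middle of all loci, at FPKM percentiles 53.0 to 58.3 in NAC-OE and 45.8 to 54.4 in GUS-OE. It had 11.5, 10.3 and 13.3 CPM in NAC-OE and 9.94, 6.96 and 11.04 CPM in GUS-OE. GUS-OE replicate 3 lay above NAC-OE replicate 2, so the groups overlapped by a small margin. The log2 fold change was 0.33 with a standard error of 0.21 and was not called (95% interval -0.13 to 0.79; edgeR adjusted p = 0.193). Without GUS-OE replicate 2 it was 0.16 (edgeR adjusted p = 0.492). In the deposited FPKM, which are scaled by library total but carry no TMM factor, the groups were separate. The values were 5.56, 4.6 and 6.62 in NAC-OE and 4.11, 2.62 and 4.26 in GUS-OE. With library size alone as the scale, EPR3 was called higher (log2 fold change 0.61; edgeR adjusted p = 0.0399). On that scale the median log2 fold change of all loci was 0.29, in place of 0.01.

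SYMRK, the receptor kinase at the entry of the common pathway, had 72.0, 74.5 and 96.5 CPM in NAC-OE and 67.5, 48.2 and 61.7 CPM in GUS-OE. Every NAC-OE library was above every GUS-OE library, and the nearest values, NAC-OE replicate 1 and GUS-OE replicate 1, were close. The means were 81.0 ± 13.5 CPM in NAC-OE and 59.2 ± 9.9 CPM in GUS-OE (SD, n = 3 each), with a log2 fold change of 0.45 (standard error 0.18, 95% interval 0.06 to 0.84; edgeR adjusted p = 0.0449). The call sat at the threshold. When the same row was tested among 46346 single transcripts in place of loci, the log2 fold change was 0.41 and the edgeR adjusted p was 0.066; there NFR1 alone was called higher and CCaMK and CYCLOPS lower, against 62.2% of all transcripts called in either direction (31.5% higher and 30.7% lower). It was also not called without NAC-OE replicate 3 (adjusted p = 0.115), without GUS-OE replicate 2 (0.144) or without GUS-OE replicate 3 (0.0897).

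CCaMK, the calcium-decoding kinase, was lower in NAC-OE and was the most evenly measured of the 6 genes there. It had 32.1, 33.5 and 32.9 CPM in NAC-OE and 46.8, 51.6 and 56.6 CPM in GUS-OE, so that every NAC-OE value was below every GUS-OE value. The means were 32.8 ± 0.709 CPM in NAC-OE and 51.7 ± 4.92 CPM in GUS-OE (SD, n = 3 each). The log2 fold change was -0.66 with a standard error of 0.14 (95% interval -0.96 to -0.35; edgeR adjusted p = 0.00191), a level of 0.635 times that of GUS-OE. It fell under each alternative tried, with log2 fold changes between -0.72 and -0.36. The smallest change was on the scale of log2(FPKM + 1), where the median of all loci was 0.17.

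CYCLOPS, the transcription factor downstream of CCaMK, was the most highly expressed of the 6 genes, at FPKM percentiles 90.3 to 93.5 in NAC-OE and 90.4 to 96.3 in GUS-OE. It had 86.7, 80.2 and 113 CPM in NAC-OE, against 242, 94.7 and 158 CPM in GUS-OE. The GUS-OE libraries differed among themselves by a factor of 2.55, and GUS-OE replicate 2 lay within the range of NAC-OE. Of 13076 loci with a mean of at least 10 CPM, 1.74% had a GUS-OE spread as wide as this or wider. In NAC-OE the factor for CYCLOPS was 1.40, reached or passed by 34.6% of those loci. The mean was 93.2 ± 17.1 CPM in NAC-OE and 165 ± 73.6 CPM in GUS-OE (SD, n = 3 each), with a log2 fold change of -0.82 (standard error 0.29, 95% interval -1.47 to -0.18; edgeR adjusted p = 0.0302). Without GUS-OE replicate 1, its highest library, the change was -0.44 (edgeR adjusted p = 0.146). Without GUS-OE replicate 2, its lowest control, it was -1.10 (edgeR adjusted p = 0.0033). The call was also lost without NAC-OE replicate 1 (adjusted p = 0.136), NAC-OE replicate 2 (0.127) or GUS-OE replicate 3 (0.056), and with library size alone (log2 fold change -0.55; edgeR adjusted p = 0.151).

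**Figure D2:**
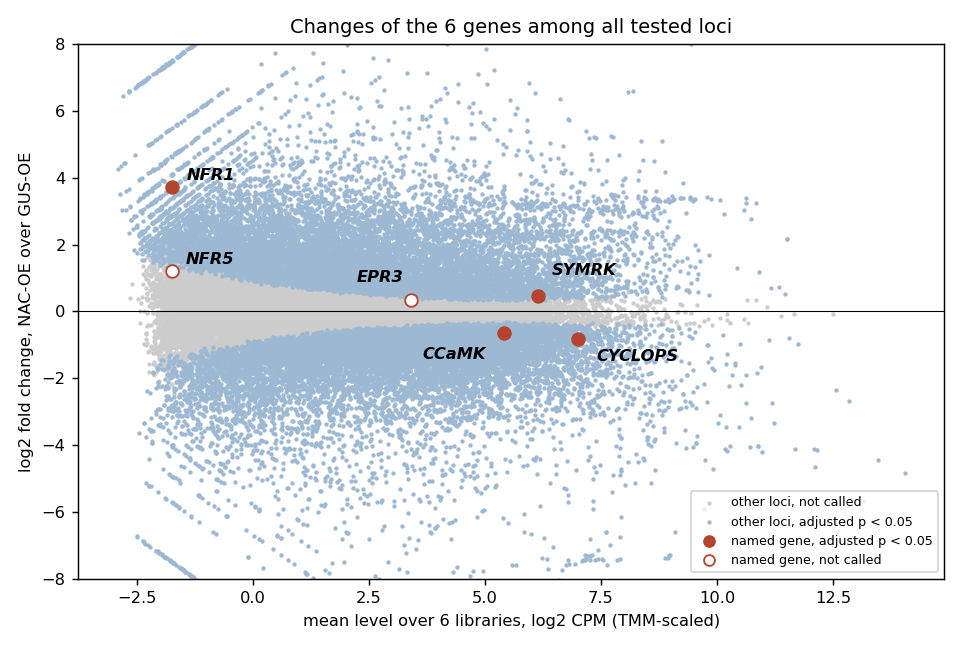
Fitted log2 fold change (NAC-OE over GUS-OE) against mean level in log2 CPM for the 37386 tested loci, with the 6 genes marked; filled red points passed an adjusted p of 0.05 and open ones did not, and 223 loci beyond 8 in either direction are outside the axis. NFR1 and NFR5 sit at the low end of the level axis, and SYMRK, CCaMK and CYCLOPS lie near the band of loci that were not called at their level.

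Several of the genes shared a low library among the controls. GUS-OE replicate 2 was the lowest of the 3 GUS-OE libraries for 5 of the 6 genes, all but CCaMK. Over 37250 tested loci with a read in GUS-OE, this library was the lowest for 32.2%. Without it the log2 fold change was 3.18 for NFR1 (edgeR adjusted p = 0.00511) and 0.33 for SYMRK. In NAC-OE, replicate 3 was the highest library for NFR1, EPR3, SYMRK and CYCLOPS. The share of all loci that were highest in that library was not computed, so this cannot be set against a background.

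The order of the 6 genes by level per length (FPKM) differed between the lines. In NAC-OE nodules it ran from CYCLOPS (55.1 ± 13.0 FPKM; SD, n = 3) through SYMRK (26.8 ± 5.71), CCaMK (20.3 ± 1.01) and EPR3 (5.59 ± 1.01) to NFR1 (0.28 ± 0.07) and NFR5 (0.193 ± 0.0929). In GUS-OE nodules it ran from CYCLOPS (80.9 ± 39.9 FPKM; SD, n = 3) through CCaMK (26.3 ± 1.85), SYMRK (16.1 ± 3.38) and EPR3 (3.66 ± 0.907) to NFR5 (0.0733 ± 0.0709) and NFR1 (0.02 ± 0.02). SYMRK was above CCaMK in each NAC-OE library and below it in each GUS-OE library. NFR1 and NFR5 overlapped in level in both lines; the other neighbours in each order did not overlap. The 6 genes together held 0.0243% ± 0.00474 of all counts in NAC-OE and 0.0261% ± 0.00875 in GUS-OE (SD, n = 3 each), a difference within the spread. CYCLOPS made up 42.3% ± 1.92 of that sum in NAC-OE and 56.0% ± 9.51 in GUS-OE (SD, n = 3 each).

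Ratios between EPR3, SYMRK, CCaMK and CYCLOPS were formed within each library, so that scaling between libraries plays no part. Of these 6 pairs, only CCaMK to CYCLOPS was planned; the others were added after the values were seen. The groups did not overlap in 4 pairs, each of which set EPR3 or SYMRK against CCaMK or CYCLOPS. Among all pairs of the 29351 loci with a mean FPKM of at least 1 and no value of 0, 70.6% did not overlap, so 4 of 6 is near the background. The pairs reuse the same 4 genes and the values already given for them. Each of these 4 had an exact two-sided permutation p = 0.1, the smallest possible with 3 against 3 libraries, and 0.15 after Benjamini-Hochberg adjustment over the 6 pairs.

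The log2 FPKM ratio of SYMRK to CCaMK was 0.25, 0.24 and 0.64 in NAC-OE, against -0.38, -1.01 and -0.79 in GUS-OE. Its mean difference was 1.11, a ratio 2.15 times as high in NAC-OE. For SYMRK to CYCLOPS the log2 ratio was -1.11, -0.94 and -1.06 in NAC-OE and -2.68, -1.81 and -2.19 in GUS-OE, a difference of 1.19. The differences were 1.0 for EPR3 to CCaMK and 1.08 for EPR3 to CYCLOPS.

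In the other pairs, EPR3 to SYMRK and CCaMK to CYCLOPS, the groups overlapped. For EPR3 to SYMRK the difference in log2 ratio was -0.11 (exact permutation p = 0.5), with means of -2.25 ± 0.12 in NAC-OE and -2.15 ± 0.17 in GUS-OE (SD, n = 3 each). For CCaMK to CYCLOPS, the kinase and its target, it was 0.08 (exact permutation p = 0.8), with means of -1.41 ± 0.26 in NAC-OE and -1.50 ± 0.75 in GUS-OE (SD, n = 3 each). The wide GUS-OE spread of the last ratio, from -2.29 in replicate 1 to -0.80 in replicate 2, leaves its difference poorly fixed, and it was -0.31 without GUS-OE replicate 1 and 0.43 without GUS-OE replicate 2.

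**Figure D3:**
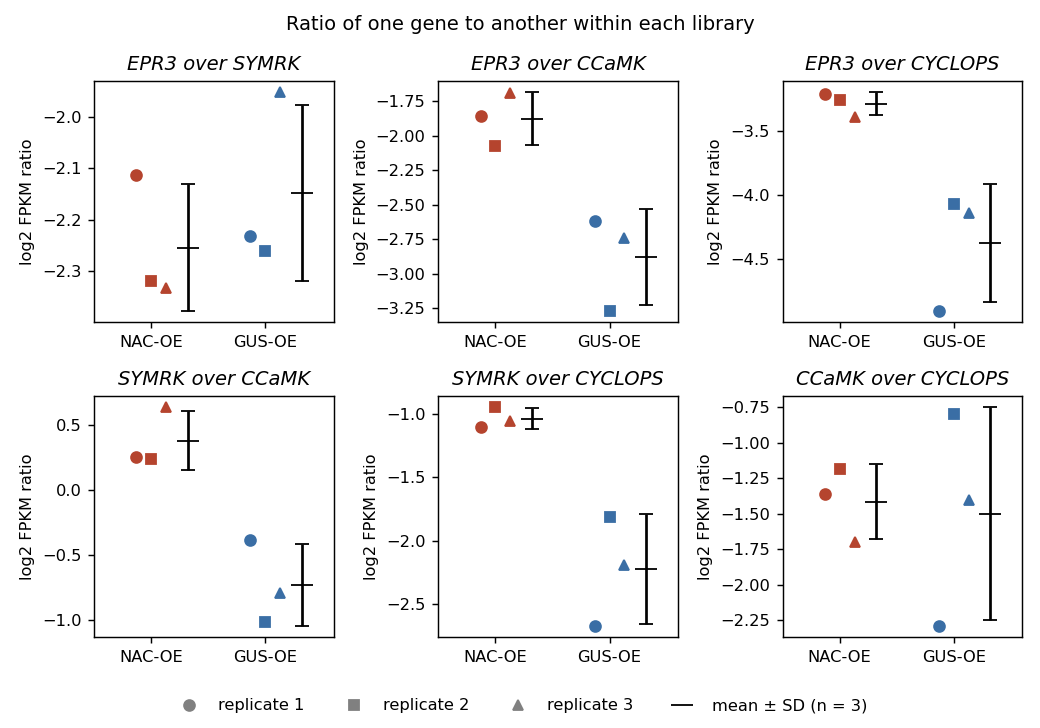
Log2 ratio of the FPKM of 2 genes within each library for the 6 pairs of EPR3, SYMRK, CCaMK and CYCLOPS, in NAC-OE (left, red) and GUS-OE (right, blue), with mean ± SD in black; each panel has its own axis. The groups are separate in the 4 panels that set EPR3 or SYMRK against CCaMK or CYCLOPS and overlap in the panels of EPR3 over SYMRK and CCaMK over CYCLOPS.

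The loci next to the 6 genes were also compared, since neighbours can share reads. Of the 24 loci that lie within 2 places of a gene in identifier order, 8 were called higher, 8 lower and 8 were not called, against 61.6% called in either direction among all tested loci. For NFR1 and for NFR5, the genes with divided reads, 1 neighbour was higher, 1 lower and 2 not called. For EPR3, 1 was higher, 2 lower and 1 not called. The neighbours of SYMRK were 2 higher and 2 lower, and those of CCaMK were 3 higher and 1 lower, while CCaMK itself was lower. Of the 4 neighbours of CYCLOPS, 1 was called, in the same direction as CYCLOPS.

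For the 4 called genes, the locus with the most similar profile was sought among 14115 loci with whole counts, as the smallest Euclidean distance in log2(CPM + 1) over the 6 libraries. It was Lj2g3v1468550 for NFR1 (distance 0.08), with 0.516 ± 0.0925 CPM in NAC-OE and 0.0389 ± 0.0337 CPM in GUS-OE (SD, n = 3 each). At such low levels profiles lie close together, and 229 loci were within 0.5 of NFR1. For CCaMK it was Lj1g3v0839140 (distance 0.17), with 31.1 ± 0.777 CPM in NAC-OE and 52.3 ± 5.45 CPM in GUS-OE (SD, n = 3 each), and 77 loci were within 0.5. For SYMRK the nearest was Lj4g3v3113070 (distance 0.36), itself not called (edgeR adjusted p = 0.212). For CYCLOPS it was Lj0g3v0168929 (distance 0.43), the only locus within 0.5, with 92.1 ± 14.8 CPM in NAC-OE and 145 ± 44.2 CPM in GUS-OE (SD, n = 3 each). Like CYCLOPS, it was highest in GUS-OE replicate 1. All these loci were picked for likeness over the same 6 libraries, so shared features are a product of the choice.

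**Figure D4:**
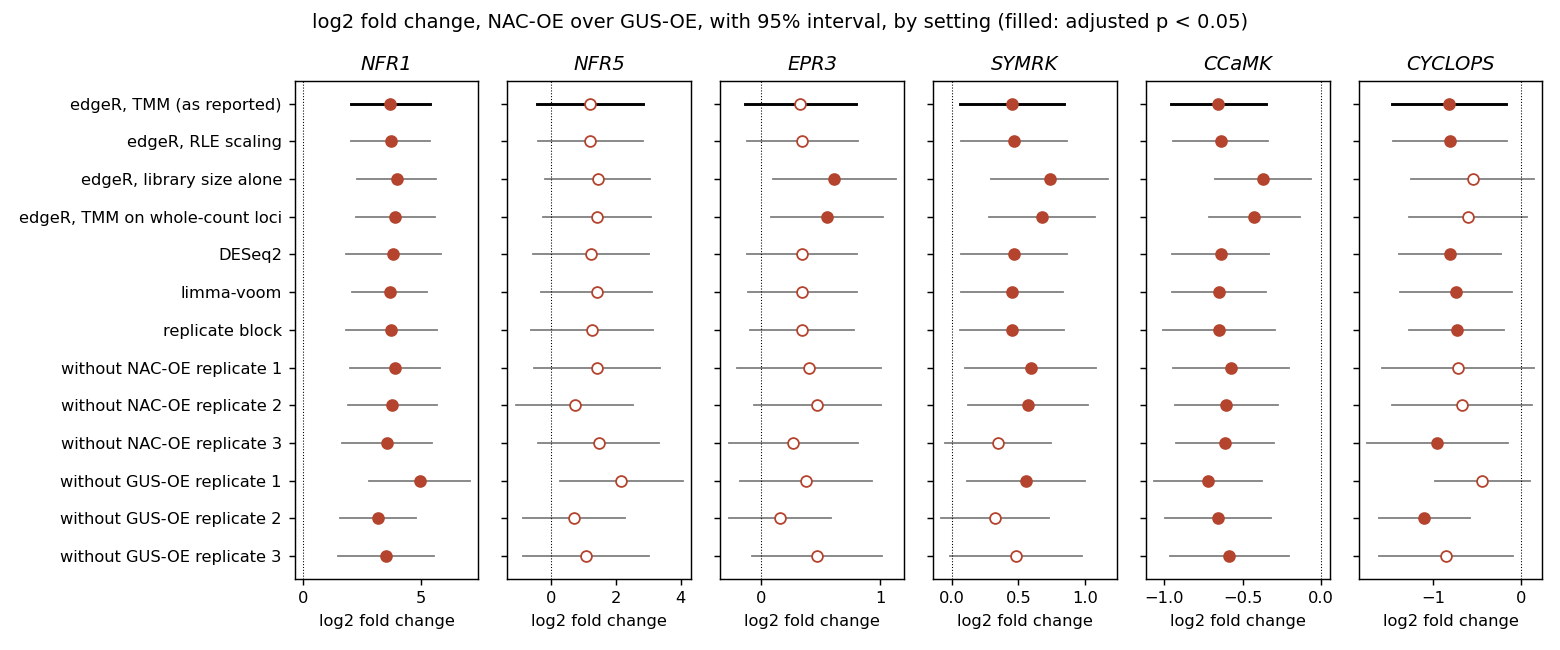
Log2 fold change (NAC-OE over GUS-OE, with its 95% interval) of each gene under 13 settings, listed down the page; filled points passed an adjusted p of 0.05, and each panel has its own axis. All points of NFR1 and CCaMK are filled, those of NFR5 are all open, and EPR3, SYMRK and CYCLOPS have both kinds.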

How the data were processed

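The authors deposited 1 table with 46398 transcripts, per the file headers: estimated counts, in part fractional, and FPKM for each library. Per the submitters' processing notes, reads were handled with fastp 0.22.0, HISAT2 and featureCounts; the sources used here give no settings, genome build or use of strand, so reads of a gene and an antisense neighbour cannot be told apart. They do not give the rule by which reads were divided.

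Gene names follow the list of MG-20 loci that defined the set; 0 of the 6 were found among the 40429 genes of the RefSeq table of accession Gifu, and no sequences or other pathway genes were joined. The genes, lists and tests were chosen with earlier results of these data known.

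Deposited counts were summed per locus (identifier before the first dot), rounded, and tested over all loci with edgeR 4.0.16 in R 4.3.3 (TMM factors, filterByExpr with minimum count 10, robust quasi-likelihood fit, group as the only term). The filter kept 37386 of 37427 loci and all 6 genes. The same fit was made per transcript. Standard errors and intervals come from the F statistic. CPM values use TMM-scaled library sizes; FPKM were used as deposited by the authors. TMM factors were between 1.03 and 1.16 in NAC-OE and between 0.872 and 0.957 in GUS-OE. Ratios were tested with exact permutation tests in scipy 1.17.1. The log2 ratio planned for NFR1 to NFR5 could not be formed, since NFR1 is listed at 0 in GUS-OE replicate 2, and plain ratios were used. The edgeR step was tested on simulated data. Alternatives used other scalings and filters, DESeq2 1.42.0, limma 3.58.1, a replicate block and each library left out. All 6 genes and their transcripts are named whatever their values; the loci of most similar profile were to be named for at most 2 genes that rose and 2 that fell. The design text names 3 biological replicates per line and no pairing. The labels give no batch, and nothing says which plants each library came from. The p-values therefore speak of the spread among these libraries alone.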

Additional observations from a re-analysis of the deposited data

How the results depend on the processing

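No gene changed direction in any of 108 fold changes per locus under alternative settings, and 93 kept their side of the threshold. NFR1 (16 alternatives), NFR5 (16) and CCaMK (19) kept theirs in all, with NFR5 at 0.72 to 2.18 without 1 library. The alternatives reuse the same libraries and are no separate support. Pooling NFR1 with 2 transcripts, counted among them for each gene, was bound to leave every value near that reported. EPR3 was called higher with library size alone (log2 fold change 0.61) and with TMM factors from whole-count loci (0.55), which moved the median of all loci to 0.29 and 0.23. SYMRK was not called when the 10 most abundant transcripts were left out of the scaling, a choice made after seeing the data (0.47, edgeR adjusted p = 0.0505), and ranged from 0.33 to 0.59 without 1 library. CYCLOPS was not called with library size alone (-0.55), TMM from whole-count loci (-0.61), limma on log2(FPKM + 1) with or without the filter (-0.45) or on log2(FPKM + 0.1) (-0.46), and ranged from -1.10 to -0.44 without 1 library.

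In place of 4 of 6 genes called (2 higher, 2 lower), 2 of the 4 genes tested were called on filtered FPKM (1 higher, 1 lower). On filtered log2(FPKM + 1), 11777 of 29888 loci were higher and 7910 lower. With library size alone, TMM from whole-count loci or unfiltered FPKM, 1 gene was lower, against 8709 to 9384 of all loci. With the filter of 1 CPM (4 genes tested) or the reduced scaling, 1 gene was higher. Those settings called 10104 of 29926 and 11787 of 37386 loci higher. Without 1 library, 2 to 3 genes were called (1 to 2 higher, 1 to 2 lower). All loci then gave 10302 to 11730 higher and 9659 to 10747 lower. Tested as transcripts, 1 was higher and 2 lower, against 14587 and 14241 of all 46346 transcripts. With library size alone, TMM from whole-count rows or unfiltered log2(FPKM + 1), 3 were higher and 1 lower. All transcripts then gave 18000 to 18602 higher and 10342 to 11131 lower. On filtered log2(FPKM + 1), 2 were higher and 1 lower, against 13960 and 9142 of 34977 transcripts. On log2(FPKM + 0.1), 1 was lower, against 9013 of 34977. Without 1 library, 1 to 2 were called in each direction, against 12848 to 14649 higher and 12057 to 13421 lower among all transcripts. The CCaMK to CYCLOPS difference (0.08) was between -0.31 and 0.43 without 1 library. The filters of 1 CPM and of mean FPKM gave no value for NFR1 and NFR5, and shares of transcripts within a locus were not computed, each locus having 1.

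In the fit with a replicate block, the log2 fold change of CYCLOPS was -0.73 (edgeR adjusted p = 0.0233) and the same 4 genes were called. SYMRK was again near the threshold (edgeR adjusted p = 0.0455). Of all 37386 loci, 11208 were called higher and 11035 lower in that fit. Deviations of same-numbered libraries correlated at -0.09, 0.14 and -0.15 over 13076 loci, and the highest value, 0.31, joined NAC-OE replicate 3 and GUS-OE replicate 1. Depth limits NFR1 and NFR5, at 69.7 and 49.5 counts over the NAC-OE libraries and 4.33 and 18.5 over the GUS-OE libraries.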
